A study of Homo sapiens with 4 samples.

Results

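The E2F transcription factors and the pocket proteins that bind them were described in the human breast cancer line MDA-MB-231 after treatment with MGH-CP1. The members were E2F1, E2F2, E2F3, E2F4, E2F5, E2F7, E2F8, RB1, RBL1 and RBL2, taken by gene symbol as 10 of the 48162 genes in the deposited expression table. A further row carried the symbol RBL1 (ENSG00000269846). It held 0 or 1 fragment in each library and was not tested. The study asked what happens to transcription when MGH-CP1, a small molecule that blocks palmitoylation of the TEAD transcription factors, is given to cells whose growth involves TEAD and its coactivator YAP. The series held 2 RNA libraries of cells given vehicle control and 2 of cells given MGH-CP1, all treated for 24 h. The labels give the dose as 10 µM, whereas the methods give the same figure in mM. MDA-MB-231 is a single line, so every library shares its genotype.

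E2F factors bind DNA mostly as heterodimers with a DP protein and control the genes needed for DNA synthesis and mitosis. E2F1, E2F2 and E2F3 are the activators. E2F4 and E2F5 act chiefly as repressors together with pocket proteins, and E2F7 and E2F8 are atypical repressors that bind DNA without a DP partner or a pocket protein. The pocket proteins RB1, RBL1 (p107) and RBL2 (p130) hold E2F in check until cyclin-dependent kinases phosphorylate them. RB1 mainly binds the activators, whereas p107 and p130 mainly bind E2F4 and E2F5, and p130 with E2F4 is a core of the DREAM complex of resting cells. E2F1, E2F2, E2F8 and RBL1 are themselves known E2F target genes.

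Expression was given as FPKM, fragments per kilobase of gene length scaled to the fragments of the library. This allows levels of different genes to be set side by side, as far as the deposited gene length fits the transcripts present. The libraries held 25455533 and 25508824 fragments on genes in vehicle control and 17997221 and 17577930 in MGH-CP1, so depth was lower in both treated libraries. With limma voom on the recovered fragments, which models depth, all 10 members kept their direction. The line's markers with a value were as known for MDA-MB-231. Vimentin (VIM) was at 259 to 281 FPKM, and the estrogen receptor ESR1 reached at most 0.0243 FPKM. PECAM1, a planned marker meant to be absent, had no value and could not be checked. The inhibitor genes CDKN2A and CDKN2B, which lie in a region deleted in this line, had 0 fragments in every library except for 1 CDKN2A fragment in vehicle control replicate 2, and a count of 0 allows up to 3 fragments. The conditions were compared with limma on log2(FPKM + 1), two-sided, with Benjamini-Hochberg adjustment over 12080 genes with a mean of at least 1 FPKM, and a gene was called at an adjusted p under 0.05. Log2 fold changes below are on that scale, MGH-CP1 minus vehicle control, and understate the change of low genes. The labels do not say that replicates came from separate cultures, so the p-values measure only the spread between these libraries, which may be technical. An exact permutation test of a single gene cannot go below p = 0.333 with 2 libraries against 2.

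Most of the family was lower at the RNA level in MGH-CP1. Of the 10 members, 7 were called lower, 1 was called higher and 2 were not called. The lower members were E2F1, E2F2, E2F3, E2F4, E2F8, RB1 and RBL1. RBL2 was the one that rose, and E2F5 and E2F7 did not pass the test. Among all genes tested, 23.8% were called lower and 27.1% higher. The 2 MGH-CP1 libraries lay below both vehicle control libraries for 9 members and above them for RBL2, where 37.4% of all genes tested lay below without overlap and 39.8% lay above. The median log2 fold change of the members was -0.25, against 0.01 over all genes tested. In bulk RNA, fewer cells in a given phase of the cycle and less RNA per cell cannot be told apart.

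**Figure D1:**
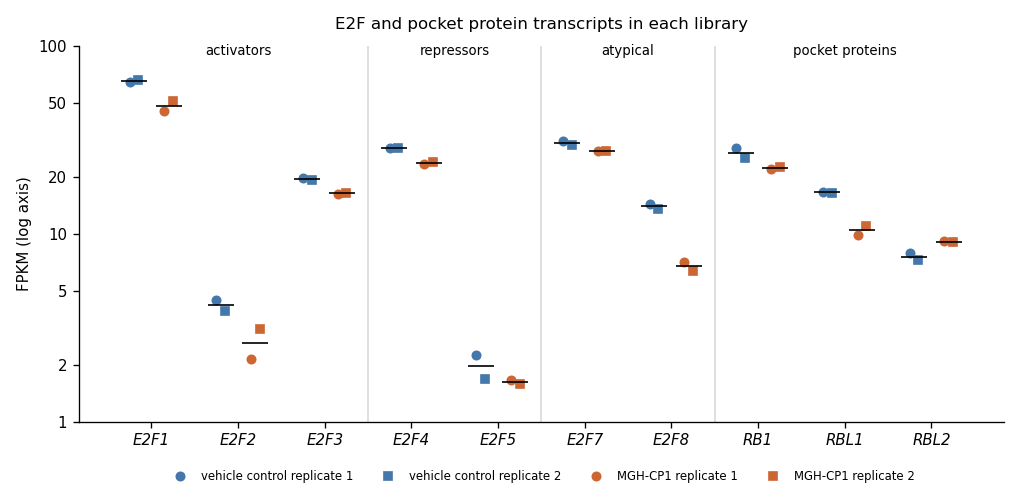
FPKM (log axis) of each member in the 4 libraries, with replicate 1 and replicate 2 of each condition as separate points. The treated points lie below both control points for 9 members, from E2F8 (14.0 to 6.72 FPKM on average) to E2F7 (30.5 to 27.7 FPKM), and above them for RBL2.

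All 3 activator E2Fs were called lower, and E2F1, the E2F member with the highest FPKM, fell by 26.6%. E2F1 (ENSG00000101412, hg19 chr20:32263489-32274210, minus strand), the best known activator, was at 64.3 and 66.3 FPKM in vehicle control and at 45.0 and 50.8 FPKM in MGH-CP1. Both treated libraries lay well below both controls. The mean went from 65.3 ± 1.42 to 47.9 ± 4.05 FPKM (SD, n = 2 each), and the log2 fold change was -0.44 (SE 0.06, 95% interval -0.59 to -0.29, limma adjusted p = 0.00082). These values rested on 2028 to 4231 fragments per library.

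E2F2 (ENSG00000007968, hg19 chr1:23832922-23857712, minus strand), an activator expressed at a low level here, was at 4.44 and 3.90 FPKM in vehicle control and at 2.15 and 3.13 FPKM in MGH-CP1. The treated libraries differed from each other more than the controls did, and lay below them. The log2 fold change was -0.52 (SE 0.14, 95% interval -0.83 to -0.20, limma adjusted p = 0.0144), on 201 to 587 fragments per library. This call was not stable: the limma adjusted p was 0.0595 without vehicle control replicate 1, where the log2 fold change was -0.44, 0.0686 without MGH-CP1 replicate 1, where it was -0.32, and 0.139 without the filter on low values. E2F3 (ENSG00000112242, hg19 chr6:20402398-20493941, plus strand), the third activator, was at 19.9 and 19.4 FPKM in vehicle control and at 16.4 and 16.6 FPKM in MGH-CP1. Replicates were close and the conditions did not overlap. The log2 fold change was -0.24 (SE 0.06, 95% interval -0.36 to -0.11, limma adjusted p = 0.00862), on 1388 to 2401 fragments. E2F3 thus had the smallest fold change of the 3 activators.

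Promoter sequence was examined because 3 activator genes and RBL1, all called lower, are known or possible targets of E2F itself. RefSeq windows of GRCh38.p14 running from 250 bases before to 50 after the start of a transcript were searched on both strands for the E2F words TTTCCCGC, TTTCGCGC, TTTGCCGC and TTTGGCGC, which do not overlap one another in the sites found. Windows were used for 7 members: E2F1, E2F2, E2F3, E2F4, E2F7, RBL1 and RBL2. The word was present for 4 of these 7 genes (57.1%), and 3.31% of all 35116 windows held it. By gene it was present for 1090 of 27305 (3.99%). The search was prompted by genes already known or possible as E2F targets, so a high share among the members was likely beforehand. Whether the words bear on the changes in RNA was not tested. The 110 bases before the start are given 5′ to 3′ on the strand of the gene. They cover the 4 genes with a word, 1 gene called higher and 1 not called. E2F4, which was called lower, held no word and is not shown. E2F8, with the largest fall of the members, had no window. Capitals mark the E2F words, read on either strand.
E2F1, GRCh38.p14 chr20:33686386-33686495, minus strand: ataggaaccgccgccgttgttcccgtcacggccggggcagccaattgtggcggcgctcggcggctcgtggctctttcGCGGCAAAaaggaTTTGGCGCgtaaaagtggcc
E2F2, GRCh38.p14 chr1:23531234-23531343, minus strand: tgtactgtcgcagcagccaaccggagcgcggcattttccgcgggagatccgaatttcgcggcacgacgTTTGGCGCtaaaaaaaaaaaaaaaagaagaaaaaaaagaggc
E2F3, GRCh38.p14 chr6:20401769-20401878, plus strand: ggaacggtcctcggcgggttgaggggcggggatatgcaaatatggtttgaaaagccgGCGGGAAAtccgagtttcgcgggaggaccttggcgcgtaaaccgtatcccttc
RBL1, GRCh38.p14 chr20:37095998-37096107, minus strand: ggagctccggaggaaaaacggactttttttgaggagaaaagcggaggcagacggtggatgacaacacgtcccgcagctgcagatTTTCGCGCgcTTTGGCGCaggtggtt
E2F7, GRCh38.p14 chr12:77065570-77065679, minus strand: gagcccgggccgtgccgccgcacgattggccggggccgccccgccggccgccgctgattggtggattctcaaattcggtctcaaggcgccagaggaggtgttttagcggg
RBL2, GRCh38.p14 chr16:53434361-53434470, plus strand: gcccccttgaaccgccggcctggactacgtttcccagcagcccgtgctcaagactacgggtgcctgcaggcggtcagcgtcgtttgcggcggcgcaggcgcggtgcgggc

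The E2F1 window held a pair of words, TTTGCCGC on the strand opposite to the gene from -33 to -26 and TTTGGCGC from -20 to -13, counted from the transcript start. The RBL1 window held TTTCGCGC from -26 to -19 and TTTGGCGC from -16 to -9. Only 0.145% of all windows held 2 or more. E2F2 had TTTGGCGC from -42 to -35, and E2F3 had TTTCCCGC on the opposite strand from -53 to -46. E2F4, E2F7, both RBL2 windows and a second E2F3 window held none of the 4 words. The transcript starts of the RBL2 windows lay 494 and 1642 bases inside the gene from its annotated 5′ end. That of the second E2F3 window lay 1708 bases inside. Of the genes on the list of G1/S targets, 12 of the 22 with a window held a word (54.5%), and of those on the list of G2/M targets 2 of 20 did (10.0%). A match is a description of the letters, and an absent match says only that these words are not in the window.

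Of the repressor E2Fs that need pocket proteins, E2F4 was called lower and E2F5 was not. E2F4 (ENSG00000205250, hg19 chr16:67226072-67232821, plus strand), the main partner of p107 and p130, was at 28.5 and 28.6 FPKM in vehicle control and at 23.7 and 24.1 FPKM in MGH-CP1. Its controls were nearly equal, and the conditions did not overlap. The mean fell by 16.3%, with a log2 fold change of -0.25 (SE 0.05, 95% interval -0.37 to -0.13, limma adjusted p = 0.00487), on 1109 to 1906 fragments. E2F5 (ENSG00000133740, hg19 chr8:86089460-86129387, plus strand), which shares this role, was at 2.27 and 1.69 FPKM in vehicle control and at 1.67 and 1.59 FPKM in MGH-CP1. The second control nearly met the treated libraries. The log2 fold change of -0.17 (SE 0.13, 95% interval -0.47 to 0.12) was not called (limma adjusted p = 0.288), and it was -0.03 without vehicle control replicate 1 (adjusted p = 0.895). E2F5 shares 3077 bases with C8orf59 on the opposite strand, a gene with 57 and 40 fragments in vehicle control and 131 and 114 in MGH-CP1. Whether the counting used strand is not given in the sources used here, so the share of E2F5 reads from that gene was not tested.

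Of the atypical repressors, E2F8 was called lower and E2F7 was not. E2F8 (ENSG00000129173, hg19 chr11:19245610-19263167, minus strand) was at 14.4 and 13.6 FPKM in vehicle control and at 7.08 and 6.37 FPKM in MGH-CP1. It had the largest fold change of the members, and the gap between conditions was many times the gap between replicates. The mean fell by 51.9%, with a log2 fold change of -0.96 (SE 0.07, 95% interval -1.13 to -0.79, limma adjusted p = 5.37e-05), on 384 to 1258 fragments. Of all genes tested, 0.414% had a lower log2 fold change. E2F7 (ENSG00000165891, hg19 chr12:77415027-77459360, minus strand) was at 31.2 and 29.9 FPKM in vehicle control and at 27.8 and 27.6 FPKM in MGH-CP1. The libraries did not overlap, but the shift was small. The log2 fold change of -0.13 (SE 0.05, 95% interval -0.26 to -0.01) was not called (limma adjusted p = 0.0637). E2F7 passed the threshold with median-ratio scaling (limma adjusted p = 0.0465) and with limma voom on recovered fragments (adjusted p = 0.034). E2F8 stood at 0.461 and 0.454 times E2F7 in vehicle control and at 0.254 and 0.230 times in MGH-CP1, with no overlap. The difference between their fold changes was not tested.

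**Figure D2:**
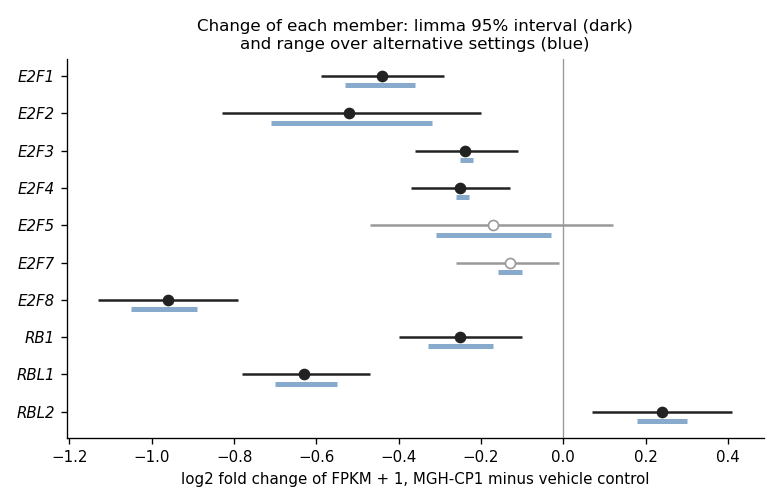
Log2 fold change of FPKM + 1, MGH-CP1 minus vehicle control, for each member. Dark bars are 95% intervals from limma, blue bars the range over all alternatives, filled points are called at an adjusted p under 0.05 and open points are not. E2F8 is lowest at -0.96, E2F5 and E2F7 are open, and RBL2 is the only member above 0, at 0.24.

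The pocket protein transcripts differed in direction. RBL1 and RB1 were called lower, and RBL2 was called higher, though not in every alternative. RBL1 (ENSG00000080839, hg19 chr20:35624752-35724398, minus strand), the gene of p107, was at 16.8 and 16.6 FPKM in vehicle control and at 9.92 and 11.0 FPKM in MGH-CP1. The controls were nearly equal, and both treated libraries lay far below them. The mean fell by 37.2%, with a log2 fold change of -0.63 (SE 0.07, 95% interval -0.78 to -0.47, limma adjusted p = 0.000227), on 1015 to 2425 fragments.

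RBL2 (ENSG00000103479, hg19 chr16:53467889-53525561, plus strand), the gene of p130, was at 7.91 and 7.23 FPKM in vehicle control and at 9.16 and 9.06 FPKM in MGH-CP1. Both treated libraries lay above both controls. The mean rose by 20.3%, with a log2 fold change of 0.24 (SE 0.07, 95% interval 0.07 to 0.41, limma adjusted p = 0.0246), on 781 to 988 fragments. This call was lost without vehicle control replicate 2 (log2 fold change 0.18, limma adjusted p = 0.13), without MGH-CP1 replicate 1 (adjusted p = 0.0949), without MGH-CP1 replicate 2 (adjusted p = 0.0756) and without the filter on low values (adjusted p = 0.0797). In all alternatives the log2 fold change stayed between 0.18 and 0.30. RBL2 shares 271 bases with AKTIP on the opposite strand, a gene with 152 to 231 fragments per library.

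RB1 (ENSG00000139687, hg19 chr13:48877887-49056122, plus strand), the retinoblastoma tumor suppressor, was at 28.6 and 25.4 FPKM in vehicle control and at 22.1 and 22.8 FPKM in MGH-CP1. The controls differed by more than the treated libraries did, and the conditions did not overlap. The mean went from 27.0 ± 2.22 to 22.5 ± 0.481 FPKM (SD, n = 2 each), with a log2 fold change of -0.25 (SE 0.07, 95% interval -0.40 to -0.10, limma adjusted p = 0.0143). RB1 was not called without vehicle control replicate 1 (log2 fold change -0.17, limma adjusted p = 0.0781), without MGH-CP1 replicate 1 (adjusted p = 0.0754) or without the filter on low values (adjusted p = 0.0934).

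The make-up of the pocket protein transcripts differed between conditions. RBL1 stood at 2.12 and 2.30 times RBL2 in vehicle control and at 1.08 and 1.22 times in MGH-CP1. In FPKM, p107 transcripts thus went from a clear excess to near parity with p130 transcripts. RBL2 made up 14.9% and 14.7% of the summed pocket protein FPKM in vehicle control and 22.2% and 21.1% in MGH-CP1, whereas RBL1 went from 31.5% and 33.7% to 24.1% and 25.7%. The share of RB1 overlapped between conditions, at 53.6% and 51.6% against 53.7% and 53.2%. RB1 thus had the highest FPKM of the pocket protein genes in every library. These ratios are built from the same values as the tests above and carry no test of their own.

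Ratios of activators to repressors overlapped or not, depending on which repressors were counted. The summed FPKM of E2F1, E2F2 and E2F3 went from 89.1 ± 0.686 to 67.1 ± 4.92 (SD, n = 2 each). Divided by that of E2F4 and E2F5, it was 2.88 and 2.96 in vehicle control and 2.51 and 2.74 in MGH-CP1, without overlap. With E2F7 and E2F8 counted among the repressors the ratio was 1.16 and 1.22 against 1.05 and 1.18, and the conditions overlapped. The activators held 53.7% and 54.9% of the summed FPKM of the 7 E2Fs in vehicle control and 51.3% and 54.2% in MGH-CP1, which also overlapped. Within the E2Fs, E2F8 dropped from 8.73% and 8.31% to 5.71% and 4.89% of that sum, while E2F7 went from 18.9% and 18.3% to 22.5% and 21.2%. These ratios and shares carry no test of their own. A lack of overlap was common: 37.4% of all genes tested lay below without overlap and 39.8% lay above.

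**Figure D3:**
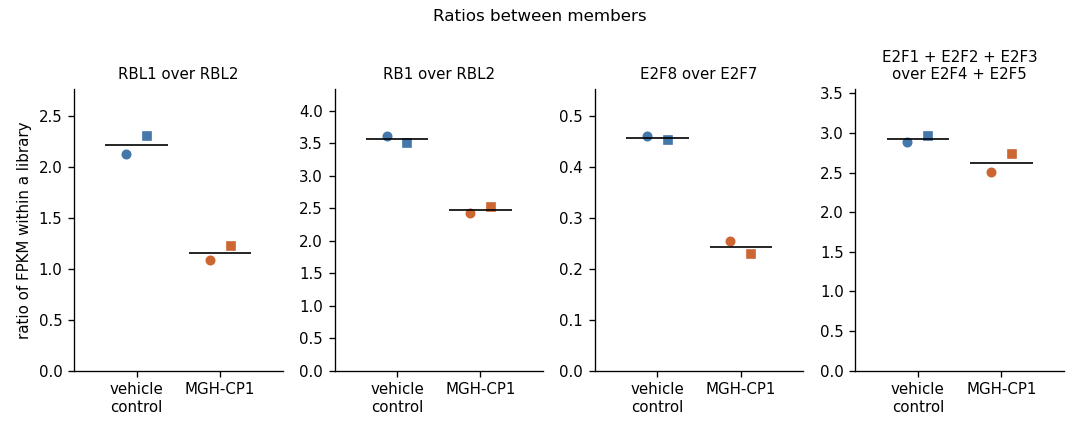
Ratios of FPKM between members or sums of members in each library, with circles for replicate 1, squares for replicate 2 and a black line for the mean of each condition named on the x axis. RBL1 over RBL2 goes from 2.21 ± 0.128 to 1.15 ± 0.097 (SD, n = 2 each). The ratio of activators to E2F4 and E2F5 goes from 2.92 ± 0.0586 to 2.63 ± 0.165, without overlap between conditions.

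In order of level, E2F1 led in vehicle control at 65.3 FPKM on average, followed by E2F7, E2F4, RB1, E2F3, RBL1, E2F8, RBL2, E2F2 and E2F5. E2F4 and RB1 overlapped between replicates in that order, and the other neighbours did not. In MGH-CP1 the order was the same but for RBL2, which at 9.11 FPKM stood above E2F8 at 6.72 FPKM, and no neighbours overlapped.

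The DP partners of E2F were listed together with the MuvB core, which binds p130 and E2F4 in DREAM and B-MYB later in the cycle. Of 10 genes listed, 9 were tested, 7 were called lower, none was called higher and 2, TFDP2 and DYRK1A, were not called. The median log2 fold change was -0.42. Among all genes tested, 23.8% were called lower and 27.1% higher. FOXM1, a transcription factor of mitotic genes that joins MuvB, went from 56.3 ± 1.39 to 30.8 ± 0.936 FPKM (log2 fold change -0.85, limma adjusted p = 2.46e-05). MYBL2, which encodes B-MYB, went from 58.9 ± 0.418 to 34.9 ± 4.59 FPKM (log2 fold change -0.75, limma adjusted p = 0.000214). Of the DP partners, chosen here after their values were seen, TFDP1 went from 81.9 to 61.2 FPKM (limma adjusted p = 0.000243), and TFDP2 was at 5.44 and 5.14 FPKM on average and was not called (adjusted p = 0.481). DYRK1A, a kinase that promotes DREAM assembly, had a log2 fold change of -0.10 (limma adjusted p = 0.183). The MuvB subunit LIN37 was too low to be tested, at 0.0961 and 0.168 FPKM in vehicle control and 0.306 and 0.348 FPKM in MGH-CP1. DYRK1A and LIN37 were likewise named after their values were seen.

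Of 8 corepressors recruited by pocket proteins, 3 were called higher and 4 lower, with a median log2 fold change of -0.09, beside 27.1% called higher and 23.8% called lower over all genes tested. SIN3B, a scaffold of histone deacetylase complexes, rose from 29.8 to 44.5 FPKM (log2 fold change 0.56, limma adjusted p = 8.67e-05), and the deacetylase HDAC1 rose from 56.6 to 74.1 FPKM (0.38, adjusted p = 0.000346). The histone methyltransferase SUV39H1 fell from 12.0 to 7.78 FPKM (-0.56, limma adjusted p = 0.000479), and SIN3A, the paralog of SIN3B, fell from 16.6 to 13.3 FPKM (-0.30, adjusted p = 0.00786).

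Upstream of the pocket proteins stand the cyclins and kinases that phosphorylate them and the inhibitors of those kinases. Of 9 cyclin and kinase genes listed, 8 were tested and 7 were called lower, with a median log2 fold change of -0.40. The exceptions, named after their values were seen, were cyclin D3 (CCND3), which was not called (limma adjusted p = 0.946), and cyclin D2 (CCND2), which was too low to be tested. Cyclin A2 (CCNA2), active in S phase and G2, fell from 85.0 to 40.3 FPKM (-1.06, limma adjusted p = 1.5e-05), and cyclin E2 (CCNE2), active at entry into S phase, fell from 5.55 to 3.05 FPKM (-0.70, adjusted p = 0.00125). Of 7 CDK inhibitors listed, 5 were tested, 3 were called higher and 1 lower. Beside both lists, 27.1% of all genes tested were called higher and 23.8% lower. CDKN1A (p21) rose from 45.0 to 62.3 FPKM (0.46, limma adjusted p = 0.000298), CDKN1C (p57) rose from 4.40 ± 0.778 to 7.77 ± 1.77 FPKM (0.69, adjusted p = 0.00531), and CDKN2C (p18) fell from 27.2 to 20.5 FPKM (-0.39, adjusted p = 0.0012).

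Downstream, every gene of both target lists was called lower. All 26 listed G1/S targets were lower, with a median of -0.72 on the log2 scale. So were all 25 G2/M targets, with a median of -0.77. The share called lower over all genes tested was 23.8%. Earlier results of these data were known when the lists were made, and CCNE1, CCNE2 and CCNA2 stand on more than 1 list. RRM2, a subunit of ribonucleotide reductase, fell from 90.2 to 41.7 FPKM (-1.10, limma adjusted p = 1.5e-05), and MCM10, a replication initiation factor, fell from 16.5 to 7.94 FPKM (-0.97, adjusted p = 0.000109). MKI67, the proliferation marker Ki-67, fell from 63.2 to 25.6 FPKM (-1.28, limma adjusted p = 1.96e-05), and KIF23, a kinesin of cytokinesis, fell from 44.3 to 20.1 FPKM (-1.10, adjusted p = 1.91e-05). Among the members, E2F8 alone lay beyond the median of both lists.

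**Figure D4:**
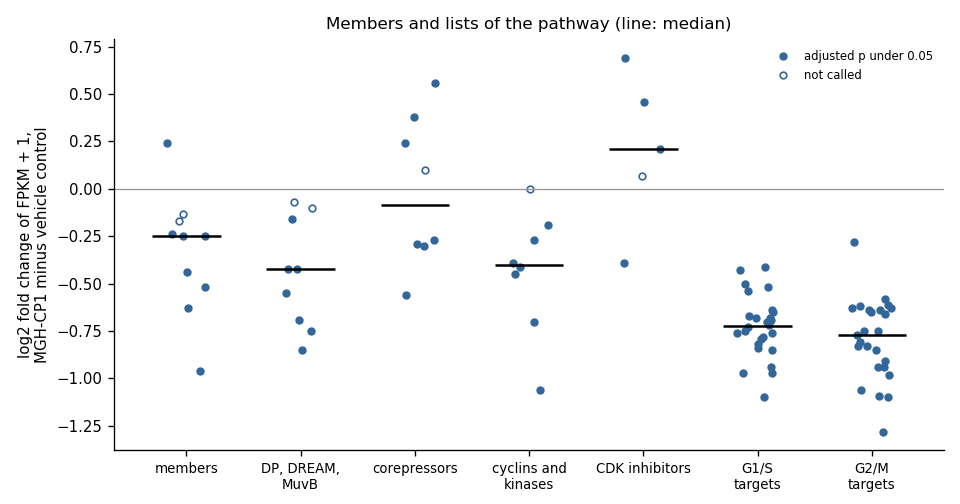
Log2 fold change of FPKM + 1, MGH-CP1 minus vehicle control, for the tested genes of the members and of each pathway list, with a line at each median. Filled points are called at an adjusted p under 0.05. All G1/S and G2/M targets lie below 0, with medians of -0.72 and -0.77, while corepressors and CDK inhibitors lie on both sides.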

How the data were processed

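RNA was measured in 4 MDA-MB-231 libraries, 2 per condition, made from poly(A) RNA. The authors deposited FPKM values per gene with gene length and coordinates. The submitters' processing notes name CASAVA 1.8, STAR and hg19, and the counting tool is not given in the sources used here. FPKM multiplied by gene length gave whole fragments, used for depth and for limma voom. Genes with a mean of at least 1 FPKM were tested on log2(FPKM + 1) using R 4.3.3 and limma 3.58.1 (eBayes with a trend), with Benjamini-Hochberg adjustment and a threshold of 0.05. The study's methods name a per-gene Student test, which was run as an alternative. The members and lists were chosen with earlier results of these data known. Named genes were all members and, per list, the 2 largest rises and 2 largest falls among called genes. Column names carrying DMSO were matched to the control titles by replicate number. Whether replicate numbers pair the samples is not known, and no label ties a number to a batch. The correlation of the replicates' deviations was 0.0777 over 12080 genes, which cannot settle it with 2 libraries per condition. Replicates differed beyond counting noise, so none was counted as a repeat. Promoter windows came from RefSeq (GRCh38.p14), whose coordinates were not mixed with hg19. E2F5 and E2F8 have no window in that table, and the RB1 window was left out because it starts 172724 bases from the gene's 5′ end. The code was tested on simulated data. Alternatives covered the pseudocount, filter, scaling, variance model, replicate block and left-out libraries.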

Additional observations from a re-analysis of the deposited data

How the results depend on the processing

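No member changed direction under any alternative run. Without a filter on low values, 0 members were called higher, 3 genes of the pathway lists were called higher (6 in the report) and 1844 of all genes were called lower (2869 in the report). The per-gene test without shared variance called 0 members higher and 0 lower, 0 list genes higher and 0 lower, and 9 of all genes higher and 4 lower. At an unadjusted p under 0.05 it called 5 members (E2F1, E2F3, E2F4, E2F8 and RBL1) and 4947 genes. With 1 library left out, 0 to 1 members were called higher and 5 to 7 lower, 4 to 6 list genes higher and 63 to 66 lower, and 2512 to 2991 of all genes higher and 2129 to 2549 lower. In these fits the lone library is assumed to vary like the others. With the replicate block, 1 member was called higher and 7 lower, and 3466 genes higher and 3052 lower, so no call among the members changed. E2F2 and E2F5 were not tested at a mean of at least 5 FPKM. Lost calls of E2F2, RB1 and RBL2 stand in the report, and the cause was not tested.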

Other observations

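E2F6, a repressor of the same family that does not need pocket proteins and was no member, was at 6.94 and 7.55 FPKM in vehicle control and at 7.55 and 7.02 FPKM in MGH-CP1. The conditions overlapped, and the log2 fold change was 0.01 (95% interval -0.17 to 0.19, limma adjusted p = 0.939). These and the following genes were chosen after the values of the members were seen. SKP2, the ubiquitin ligase subunit that targets p27, was at 16.3 and 14.8 FPKM in vehicle control and at 8.68 and 9.72 FPKM in MGH-CP1 (-0.70, limma adjusted p = 0.000239). FBXO5, an inhibitor of the anaphase-promoting complex, was at 25.4 and 22.3 FPKM and at 11.9 FPKM in both treated libraries (-0.94, limma adjusted p = 4.75e-05). CCNF, the ubiquitin ligase subunit cyclin F, was at 13.0 and 13.4 FPKM and at 6.88 and 8.16 FPKM (-0.74, limma adjusted p = 0.000258). These 3 genes fell, with no overlap between conditions. EAPP, a phosphoprotein that binds E2F, rose from 18.4 and 18.9 to 24.9 and 21.5 FPKM (0.30, limma adjusted p = 0.0113).

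The catalytic subunits of protein phosphatase 1, which removes phosphate from RB1, differed in direction. PPP1CC fell from 140.0 and 130.0 to 102.0 and 101.0 FPKM (-0.41, limma adjusted p = 0.000391). PPP1CB rose from 42.5 and 42.3 to 47.8 and 48.0 FPKM (0.17, limma adjusted p = 0.0166). PPP1CA was at 118.0 and 125.0 against 125.0 and 127.0 FPKM and was not called (limma adjusted p = 0.366).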
